A study of Mus musculus with 12 samples.

Results

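Oxidative phosphorylation subunit genes were followed across 4 lines of mouse induced pluripotent stem cells, on 12 arrays. A gene belonged to the set when its symbol began with Nduf, Uqcr, Atp5 or Cox followed by a digit 4 to 8, or was Sdha, Sdhb, Sdhc, Sdhd or Cyc1, and when the array annotation gave it a probe set of its own. The rule found 90 genes among 19938 genes with such a probe set, and measured values played no part in it. The members were sorted by respiratory complex into 34 subunits of complex I, 4 of complex II, 9 of complex III, 19 genes of complex IV and 17 of complex V. The remaining 7 members, the Ndufaf genes, and Cox7a2l are not subunits: they encode factors that help to assemble complex I or to join complexes into larger units. Cox7c and Ndufb4 were covered here by probe sets that list several genes. Ndufa4 and Ndufa4l2 carry complex I names and were placed with complex IV, where the Ndufa4 protein is now known to sit.

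All 4 lines, LiPS-45, LiPS-57, LiPS-47 and LiPS-50, were made with 3 reprogramming factors from embryonic fibroblasts, are labelled as strain C57BL/6J, and were grown in medium for embryonic stem cells. LiPS-45 and LiPS-57 are labelled as having the competence for tetraploid embryo complementation, a test in which the tested cells have to form the embryo proper because the host embryo's tetraploid cells contribute mainly to extraembryonic tissues. LiPS-47 and LiPS-50 are labelled as lacking it. The 3 samples of a line are described as biological repeats and are called cultures here, each with 1 array, so a difference between lines was read against the spread between cultures, while the competence comparison rests on 2 lines a side. The labels name neither the factors, the passage nor the feeder cells, and each line is a line of its own rather than a treatment of another.

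Oxidative phosphorylation passes electrons from NADH (through complex I) or succinate (through complex II) to coenzyme Q, complex III and cytochrome c, and then to oxygen at complex IV. Complexes I, III and IV pump protons across the inner mitochondrial membrane, and complex V, the ATP synthase, uses their return to make ATP. Most subunits are encoded by nuclear genes scattered over the chromosomes and a few by mitochondrial DNA. Pluripotent cells are known to rely strongly on glycolysis, and respiration is among the features that differ between naive and primed pluripotent states.

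The promoters of 4 members that differed between lines are shown first, as RefSeq gives them for GRCm38.p6. Each window of 280 bases runs from 250 bases before the annotated start of the gene to 30 bases after it, is written 5′ to 3′ along the gene's own strand, and has matches to a searched motif in capitals. Ndufa1 (chrX:37191209-37191488, minus strand), Ndufb11 (chrX:20617590-20617869, minus strand) and Cox7b (chrX:106015450-106015729, plus strand) are shown because these X-linked genes were higher together in LiPS-50. Sdhd (chr9:50603820-50604099, minus strand) is shown because it separated the lines in another way.

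Ndufa1: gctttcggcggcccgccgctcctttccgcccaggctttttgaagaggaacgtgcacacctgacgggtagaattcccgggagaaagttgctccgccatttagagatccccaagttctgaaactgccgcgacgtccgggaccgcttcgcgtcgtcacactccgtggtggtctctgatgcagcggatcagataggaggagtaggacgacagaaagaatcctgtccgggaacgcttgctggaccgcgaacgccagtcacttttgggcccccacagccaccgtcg
Ndufb11: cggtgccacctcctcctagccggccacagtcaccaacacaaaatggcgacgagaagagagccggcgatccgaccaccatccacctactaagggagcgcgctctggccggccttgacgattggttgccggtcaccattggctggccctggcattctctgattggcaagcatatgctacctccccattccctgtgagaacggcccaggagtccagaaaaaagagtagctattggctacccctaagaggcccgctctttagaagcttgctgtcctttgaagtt
Cox7b: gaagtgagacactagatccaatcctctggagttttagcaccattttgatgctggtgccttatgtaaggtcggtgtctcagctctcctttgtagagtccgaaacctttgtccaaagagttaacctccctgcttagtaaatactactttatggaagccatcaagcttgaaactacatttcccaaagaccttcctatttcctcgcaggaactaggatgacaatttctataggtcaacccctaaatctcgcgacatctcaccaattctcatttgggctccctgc
Sdhd: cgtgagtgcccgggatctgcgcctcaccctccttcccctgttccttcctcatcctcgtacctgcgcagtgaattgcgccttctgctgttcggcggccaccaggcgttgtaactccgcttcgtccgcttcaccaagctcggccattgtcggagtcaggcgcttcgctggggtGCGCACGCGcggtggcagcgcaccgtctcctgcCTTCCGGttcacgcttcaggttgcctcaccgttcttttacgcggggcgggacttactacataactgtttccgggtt

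Motifs of 3 factors known to act on nuclear genes for mitochondrial proteins were searched on both strands: CGCNTGCGC for NRF1, CCGGAAG for GABPA and AAGATGGC for YY1. No motif contains another, and a match is a run of letters, not a measured binding site. In the Sdhd promoter, the NRF1 letters lay on the minus strand of the window, as GCGCACGCG, with the first base 79 bases before the start, and the GABPA letters, as CTTCCGG, began 46 bases before it. The windows of Ndufa1, Ndufb11 and Cox7b held no match. A RefSeq promoter was found for 73 of the 90 members. The NRF1 letters were present in 19 of these 73 windows (26.0%), against 6.19% of all 27025 promoters and 8.43% of those of protein-coding genes. A form with 1 more G in front, which was searched first and then shortened after its result was known, was present in 16 (21.9%), against 4.57% and 6.30%. GABPA letters were found in 17 (23.3%), against 8.70% and 11.4%, and YY1 letters in 3 (4.11%), against 2.38% and 2.53%. With the shorter NRF1 form, at least 1 of the motifs stood in 33 windows (45.2%), against 15.6% of all promoters and 20.0% of those of protein-coding genes. The median GC content was 57.9% in the members' windows and 56.1% in those of protein-coding genes.

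The members' levels are log2(intensity + 1) of the brightest probe set of each gene, and differences between lines are differences on that scale, which understates changes of dim genes. Levels were not compared between genes, because a probe set's brightness also depends on its probes. Of the 90 members, 88 had a mean at or above the 40th percentile of all tested probe set means (5.21), and Cox7b2 and Cox8b lay below it. The array medians over all probe sets differed little, from 5.67 to 5.76. Members varied little between lines: the range of the 4 line means had a median of 0.131, or 1.09-fold, against 0.192, or 1.14-fold, over all 19938 genes. For 82 members (91.1%) that range was under 1.25-fold, against 80.4% of all genes. The standard deviation between cultures of a line was also lower for members, with a median of 0.0798 against 0.109. By complex, the median range was 0.0897 for complex III, 0.107 for complex V, 0.130 for complex I, 0.161 for complex IV, 0.169 for the Ndufaf genes and 0.192 for complex II.

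LiPS-45, LiPS-57 and LiPS-47 differed from each other in no member past the threshold, and all the called differences involved LiPS-50. With limma and Benjamini-Hochberg adjustment over 28939 probe sets at 0.05, 0 members were called between LiPS-45 and LiPS-57 (background 0.266% of all probe sets), 0 between LiPS-45 and LiPS-47 (0.0622%) and 0 between LiPS-57 and LiPS-47 (0.159%). At an unadjusted p under 0.05 the counts were 4, 6 and 7 of 90 members, against 2318, 2585 and 1995 of all 28939 probe sets. Between LiPS-45 and LiPS-50, 5 members were called (5.56%, background 16.5%), 2 lower and 3 higher in LiPS-50 (background 8.3% and 8.18%). Between LiPS-57 and LiPS-50, 11 were called (12.2%, background 15.6%), 5 lower and 6 higher in LiPS-50 (background 7.48% and 8.16%); the split was 7 and 3 with each array centred on its median. Between LiPS-47 and LiPS-50, 10 were called (11.1%, background 15.8%), 2 lower and 8 higher in LiPS-50 (background 7.31% and 8.48%). All 3 shares lay below the share over all probe sets. The 3 comparisons share the LiPS-50 arrays, so they are given side by side and not as repeats of each other. In at least 1 of the 6 pairs, 14 members were called (15.6%, background 22.7%): 4 of 34 in complex I, 1 of 7 Ndufaf genes, 2 of 4 in complex II, 0 of 9 in complex III, 6 of 19 in complex IV and 1 of 17 in complex V. The F-test over the 4 lines called 7 members (7.78%, background 14.9%).

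**Figure D1:**
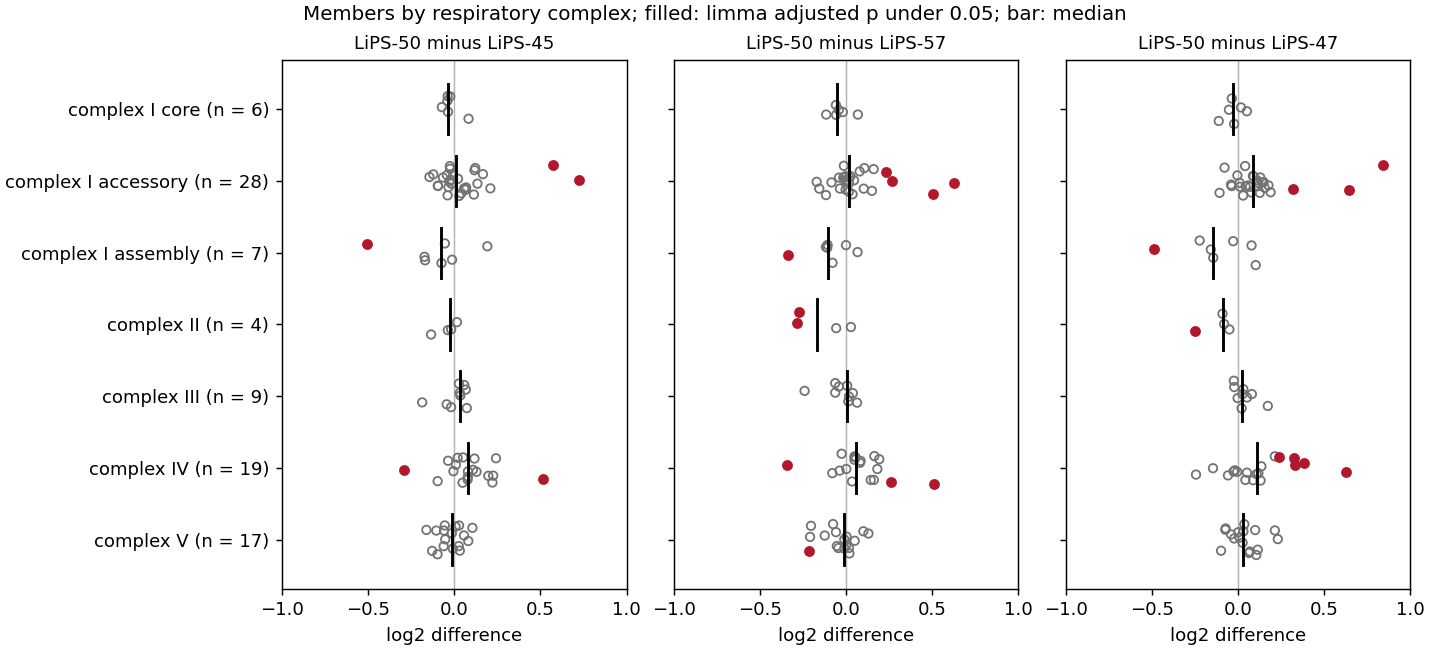
Log2 difference of LiPS-50 minus LiPS-45, LiPS-57 and LiPS-47 (horizontal axes) for each of the 90 members, in rows by respiratory complex. Each point is a gene, filled where the adjusted p was under 0.05, and the black bar is the median of the row; most points lie within 0.25 of 0, the filled points farthest to the right are Ndufa1, Ndufb11 and Cox7b, and the filled point on the left in the assembly row is Ndufaf6.

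Markers of fibroblasts moved with LiPS-50, and their values are given here, ahead of the LiPS-50 results by complex. Of 27 fibroblast and feeder cell markers, LiPS-50 was called higher against LiPS-45 for 26, against LiPS-57 for 25 and against LiPS-47 for 26. The background for that direction was 8.18%, 8.16% and 8.48%. Their summed level was 15.25 to 15.42 on the log2 scale in LiPS-50 cultures and 14.57 to 15.02 in the other 9. The 6 defining markers summed to 12.86 to 13.11 in LiPS-50 and 11.92 to 12.53 elsewhere, so none of the lines was free of their signal. Of 12 pluripotent stem cell markers, 7, 6 and 6 were called in the same 3 pairs, in both directions (background 16.5%, 15.6% and 15.8%). Lin28a and Sall4 were lower in LiPS-50 and Fgf4 was higher. In whole-culture RNA, fewer cells of a type and less RNA per cell cannot be told apart. The part of these markers in the members' differences was not tested.

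Complex I is built on core subunits that carry the flavin and iron-sulfur clusters, with many accessory subunits around them. The 6 measured core genes, Ndufs1, Ndufs3, Ndufs7, Ndufs8, Ndufv1 and Ndufv2, gave 0 calls in every pair (background 22.7% for a call in at least 1 pair). Their differences stayed between −0.101 and 0.115 over all 6 pairs, and for each of the 6 genes the 95% interval of every pair lay within 1.25-fold. Ndufv2, which carries an iron-sulfur cluster of the electron input module, ranged from 9.88 to 10.09 over the 12 arrays. Ndufs3, part of the arm that passes electrons to coenzyme Q, ranged from 10.27 to 10.44. The core of complex I thus showed no difference that these arrays resolved.

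Among the 28 accessory genes, 2 were called against LiPS-45, 4 against LiPS-57 and 3 against LiPS-47, all of them higher in LiPS-50 (background for that direction 8.18%, 8.16% and 8.48%). Those counts are 7.14%, 14.3% and 10.7% of the 28 genes, and the first and the third lie near that background. The X-linked Ndufa1 and Ndufb11 are among the calls in each pair. Ndufa1, a small membrane-arm subunit needed to assemble the complex, measured 7.52, 7.61 and 7.53 in LiPS-45, 7.65, 7.71 and 7.59 in LiPS-57, 7.12, 7.65 and 7.52 in LiPS-47, and 8.35, 8.25 and 8.23 in LiPS-50. All 3 LiPS-50 cultures lay above the other 9, which overlapped each other. LiPS-50 exceeded LiPS-45 by 0.72, LiPS-57 by 0.63 and LiPS-47 by 0.84, each with a standard error of 0.11 (adjusted p = 0.000775, 0.00214 and 0.000263). Ndufb11, another membrane-arm subunit, measured 9.05, 8.92 and 8.89 in LiPS-45, 8.97, 9.10 and 9.00 in LiPS-57, 8.71, 8.91 and 9.03 in LiPS-47, and 9.50, 9.55 and 9.52 in LiPS-50. Again the LiPS-50 cultures stood above all others, by 0.57, 0.50 and 0.64 over LiPS-45, LiPS-57 and LiPS-47 (standard error 0.08, adjusted p = 0.000547, 0.00143 and 0.000234). The second probe set of Ndufb11 also passed the test in the 3 pairs, at 1.44-fold, 1.45-fold and 1.55-fold.

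The other 2 accessory calls were smaller. Ndufa8, a subunit with disulfide-bonded helices on the intermembrane side, measured 9.28, 9.27 and 9.21 in LiPS-57 and 9.42, 9.50 and 9.54 in LiPS-50, with LiPS-45 (9.36, 9.33 and 9.27) and LiPS-47 (9.41, 9.38 and 9.32) between them. LiPS-50 was 1.18-fold above LiPS-57 (adjusted p = 0.0166), a call lost when each array was centred on its median (adjusted p = 0.0696). Ndufa11, a membrane-arm subunit at the contact with complex III in supercomplexes, measured 9.07, 8.91 and 8.96 in LiPS-50 and 8.48 to 8.81 in the other lines. Its brightest probe set was called 1.25-fold higher than in LiPS-47 and 1.20-fold higher than in LiPS-57 (adjusted p = 0.0162 and 0.0409). That probe set is numbered among genes of another chromosome than the Ndufa11 gene's own; the one numbered with its own chromosome gave 1.08-fold and 1.05-fold (adjusted p = 0.271 and 0.541), so the Ndufa11 call rests on which probe set stands for the gene. What else such a probe set may measure was not tested.

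The 7 Ndufaf genes encode assembly factors that act on complex I while it is built. Ndufaf6, needed early in the assembly of the complex, measured 6.70, 6.82 and 6.86 in LiPS-45, 6.50, 6.66 and 6.72 in LiPS-57, 6.81, 6.75 and 6.76 in LiPS-47, and 6.24, 6.37 and 6.26 in LiPS-50. The LiPS-50 cultures were the lowest 3 of the 12. LiPS-45 exceeded LiPS-50 by 0.50, LiPS-47 did by 0.49 and LiPS-57 by 0.34, each with a standard error of 0.07 (adjusted p = 0.000559, 0.000663 and 0.00708). No other Ndufaf gene was called: Ndufaf2, Ndufaf3, Ndufaf4 and Ndufaf7 had LiPS-50 means of 8.45, 7.19, 7.43 and 8.03 against ranges of 8.56 to 8.67, 7.00 to 7.12, 7.54 to 7.60 and 8.11 to 8.17 in the other lines. LiPS-50 was the lowest line for 5 of the 7 genes, against 33.6% of all genes and 4 of the 6 complex I core genes. Among the members as a whole, Ndufaf6 was the only gene called lower in LiPS-50 in all 3 pairs (1.11%, background 4.57%).

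**Figure D2:**
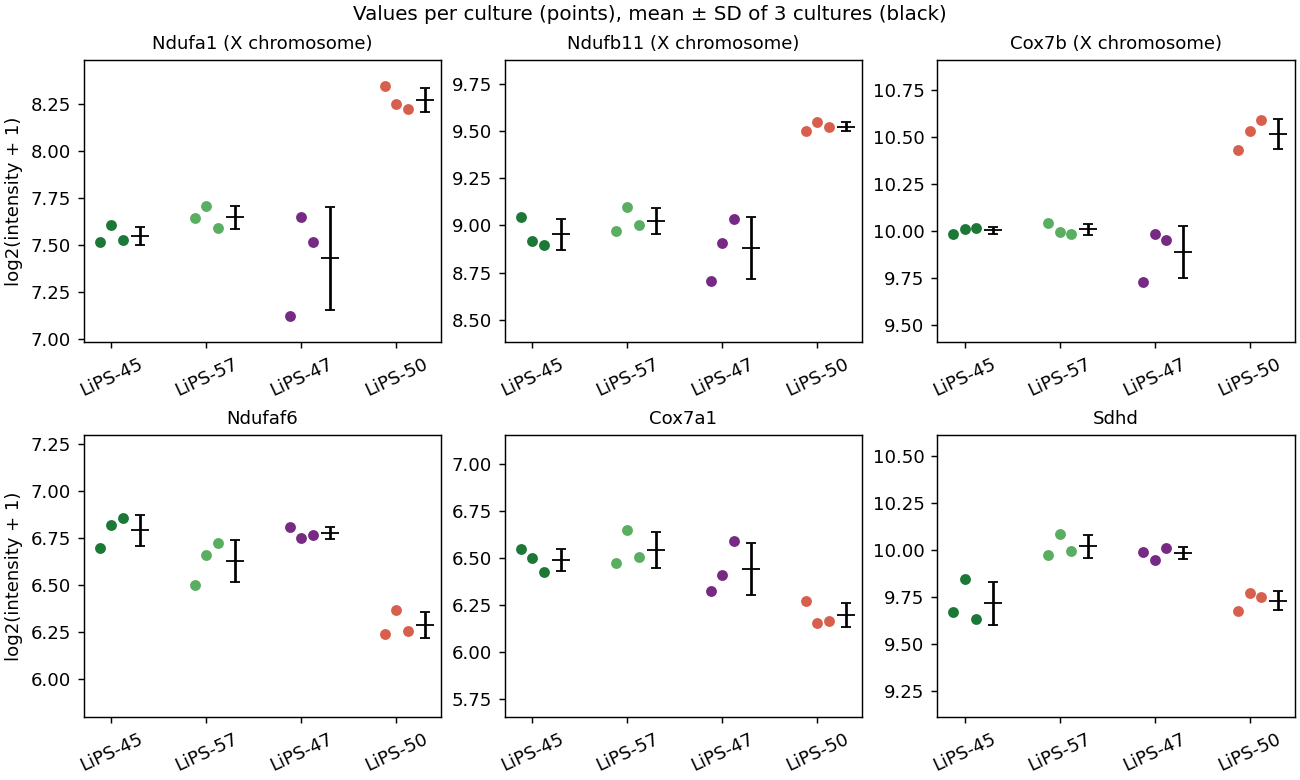
Log2(intensity + 1) of 6 members (vertical axes, each spanning the same 1.5 log2 units) in the 4 lines, with a point per culture and the mean ± SD of 3 cultures in black. LiPS-50 stands above the other lines for Ndufa1, Ndufb11 and Cox7b and below them for Ndufaf6 and Cox7a1, while for Sdhd LiPS-45 and LiPS-50 lie below LiPS-57 and LiPS-47.

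Complex II, succinate dehydrogenase, also works in the tricarboxylic acid cycle. Its catalytic genes Sdha (the flavoprotein) and Sdhb (the iron-sulfur protein) gave 0 calls, with arrays between 10.65 and 10.85 and between 8.76 and 8.99. Both membrane anchor genes were called. Sdhd measured 9.67, 9.84 and 9.63 in LiPS-45, 9.97, 10.09 and 9.99 in LiPS-57, 9.99, 9.94 and 10.01 in LiPS-47, and 9.67, 9.77 and 9.75 in LiPS-50. The LiPS-57 and LiPS-47 cultures all lay above those of LiPS-45 and LiPS-50, so a competent line and one without competence stood on each side. LiPS-57 exceeded LiPS-50 by 0.29 and LiPS-47 did by 0.25 (standard error 0.07, adjusted p = 0.0122 and 0.0237). The differences from LiPS-45 were of like size, 1.23-fold for LiPS-57 and 1.20-fold for LiPS-47, and did not pass the threshold (adjusted p = 0.156 and 0.232); far fewer probe sets differed in those pairs, and adjustment is stricter there. Without LiPS-50 replicate 1 the 2 calls were lost (adjusted p = 0.0504 and 0.0868), and leaving out LiPS-57 replicate 2 ended the former and LiPS-47 replicate 1 or 3 or LiPS-50 replicate 3 the latter. Sdhc, the other anchor, measured 9.07, 9.15 and 9.19 in LiPS-57 and 8.95, 8.82 and 8.81 in LiPS-50, and was called 1.21-fold higher in LiPS-57 (adjusted p = 0.0279). It measured 9.02, 9.04 and 8.91 in LiPS-45 and 8.78, 9.04 and 8.91 in LiPS-47, which overlapped LiPS-50 and lay below LiPS-57. Leaving out LiPS-57 replicate 2 or 3 or LiPS-50 replicate 2 or 3 ended the Sdhc call, with adjusted p between 0.0799 and 0.0942.

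Complex III, which hands electrons from coenzyme Q to cytochrome c, had the smallest median range of line means of the 5 complexes, while complex V had the smallest standard deviation between cultures (medians of 0.0606 and 0.0725 in complex III). None of the 9 complex III genes was called in any pair (background 22.7% for a call in at least 1 pair). The F-test called 0 (background 14.9%), and 1 had an unadjusted F-test p under 0.05, as did 7992 of 28939 probe sets. With 9 genes and these shares, counts of 0 say little about complex III. Cyc1, the cytochrome c1 heme subunit, ranged from 10.30 to 10.51 over the 12 arrays with no line standing apart. Uqcrh, the hinge protein that binds cytochrome c1, had the widest range of line means of the group, 0.241. It measured 9.52, 9.40 and 9.48 in LiPS-57 and 9.36, 9.11 and 9.21 in LiPS-50 (adjusted p = 0.0904). Uqcr10, Uqcr11, Uqcrb and Uqcrq, small subunits, had their lowest array in the same culture, LiPS-47 replicate 1, at 8.03, 7.39, 10.45 and 8.43.

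Complex IV, cytochrome c oxidase, held the most called members, 6 of 19 (background 22.7% for a call in at least 1 pair). LiPS-50 was the highest line for 12 of the 19 genes, against 34.9% of all genes. Cox7b, a subunit needed for assembly of the complex, measured 9.98, 10.01 and 10.01 in LiPS-45, 10.04, 9.99 and 9.98 in LiPS-57, 9.73, 9.98 and 9.95 in LiPS-47, and 10.43, 10.53 and 10.59 in LiPS-50. The LiPS-50 cultures lay above the other 9. The excess was 0.51 over LiPS-45, 0.51 over LiPS-57 and 0.63 over LiPS-47 (standard error 0.07, adjusted p = 0.000535, 0.000626 and 0.000122). Its second probe set gave 1.37-fold, 1.44-fold and 1.56-fold and also passed the test in each pair.

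Several complex IV subunits exist as a widely expressed gene and a gene of restricted tissue range, and these pairs were followed one by one. Cox7a1, the heart and muscle form, measured 6.55, 6.50 and 6.43 in LiPS-45, 6.47, 6.65 and 6.51 in LiPS-57, 6.33, 6.41 and 6.59 in LiPS-47, and 6.27, 6.16 and 6.17 in LiPS-50. All LiPS-50 values were below all others. The gene was called against LiPS-57 (1.27-fold lower in LiPS-50, adjusted p = 0.0105) and LiPS-45 (1.22-fold, adjusted p = 0.0241) and missed the threshold against LiPS-47 (1.18-fold, adjusted p = 0.0569). The LiPS-45 call was lost without LiPS-45 replicate 1 or 2 or LiPS-50 replicate 2 or 3 (adjusted p up to 0.0804). Its widely expressed partner Cox7a2 was not called and ranged from 9.56 to 9.81.

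Cox6b2, the testis form of a subunit that binds cytochrome c on the intermembrane side, measured 7.59, 7.53 and 7.53 in LiPS-50. It measured 7.34, 7.42 and 7.21 in LiPS-45, 7.29, 7.32 and 7.24 in LiPS-57, and 7.11, 7.36 and 7.20 in LiPS-47, so the LiPS-50 cultures did not overlap the others. The excess was called over LiPS-47 (1.25-fold, adjusted p = 0.0109) and LiPS-57 (1.20-fold, adjusted p = 0.0337), the latter lost when each array was centred on its median (adjusted p = 0.0796) or when any culture of LiPS-57 or LiPS-50 was left out. Cox6b1, the widely expressed form, ranged from 9.80 to 10.17 without a call. Cox4i1, the widely expressed form of the regulatory subunit that binds ATP, measured 10.18, 10.01 and 10.14 in LiPS-50 and 9.78, 9.94 and 9.89 in LiPS-47, a called difference of 1.18-fold (adjusted p = 0.0231). Cox4i2, the form known from lung and from low oxygen, ranged from 5.68 to 6.04 without a call. The Cox4i1 call did not outlast median centring (adjusted p = 0.066).

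Cox6c and Cox8a were called in the same pair. Cox6c measured 11.18, 11.14 and 11.15 in LiPS-50 and 10.63, 10.92 and 10.93 in LiPS-47 (1.26-fold, adjusted p = 0.0169), and Cox8a measured 10.09, 10.01 and 9.80 against 9.34, 9.80 and 9.61 (1.30-fold, adjusted p = 0.0369). The lowest LiPS-47 value came from replicate 1 in each gene. Without that culture the adjusted p was 0.0506 for Cox6c, 0.135 for Cox8a, 0.0868 for Cox4i1 and 0.054 for Ndufa11, so these 4 calls against LiPS-47 hang on it. Leaving out LiPS-50 replicate 1 also ended each of the 4 calls. The probe set of Cox6c numbered with its own chromosome gave 1.19-fold (adjusted p = 0.097).

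The restricted forms Cox6a2, Cox7b2, Cox8b, Cox8c and Ndufa4l2 gave 0 calls, with arrays between 5.41 and 6.07, 3.61 and 4.08, 4.18 and 4.86, 5.93 and 6.04, and 5.19 and 5.60. Their partners Cox6a1 (9.32 to 9.76) and Ndufa4 (10.68 to 11.01) were not called either. Cox7a2l, which promotes the joining of complexes III and IV, was not called through its brightest probe set (9.37, 9.36 and 9.39 in LiPS-50 and 9.13 to 9.30 elsewhere). Its probe set numbered with its own chromosome passed the test against LiPS-47 (1.18-fold, adjusted p = 0.044) and LiPS-57 (1.17-fold, adjusted p = 0.0487).

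Complex V, the ATP synthase, held 1 called member of 17 (5.88%, background 22.7% for a call in at least 1 pair). Atp5g2, 1 of 3 genes for the identical membrane ring subunit c, measured 11.38, 11.43 and 11.44 in LiPS-57 and 11.23, 11.22 and 11.16 in LiPS-50 (1.16-fold, adjusted p = 0.0422). This call was lost under 14 of 21 alternatives, with adjusted p up to 0.129, among them leaving out any culture of either line. The Atp5g2 probe set is numbered among genes of another chromosome, and the gene's 3 probe sets gave differences of 0.201 to 0.217. Atp5g1 ranged from 9.11 to 9.62 and Atp5g3 from 11.17 to 11.38 without a call. Atp5l, a membrane subunit of the stalk region, had the widest range of line means in the complex, 0.293, with 9.16, 9.13 and 9.19 in LiPS-45 and 8.63, 9.00 and 8.96 in LiPS-47 (adjusted p = 0.31). Its probe set is also numbered among genes of another chromosome. Atp5e, a subunit of the central stalk, ranged from 8.24 to 8.58, and Atp5mpl, a small membrane subunit, from 10.04 to 10.46, both without a call.

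The 3 members that were higher in LiPS-50 in all 3 pairs, Ndufa1, Ndufb11 and Cox7b (3.33% of members, background 5.86%), were also the only members on the X chromosome. Of 739 X-linked genes, 244 (33.0%) were called higher in LiPS-50 in all 3 pairs, against 5.76% of autosomal genes. Among the 413 X-linked genes at or above the 40th percentile, the median excess of LiPS-50 was 1.26-fold over LiPS-45 and 1.30-fold over LiPS-57 and over LiPS-47. The 3 members lay above that median in every pair, at percentiles of 69.0 to 93.2 among those genes. Leaving the X-linked members out, 2, 8 and 7 of the other 87 members were called against LiPS-45, LiPS-57 and LiPS-47, which is 2.30%, 9.20% and 8.05% (background 16.5%, 15.6% and 15.8%), below the share over all probe sets. The part of this X-linked shift in the members' differences was not tested.

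The members' median stood apart in 1 culture. The median deviation of the 90 members from their own means was −0.0882 in LiPS-47 replicate 1 and between −0.022 and 0.030 in the other 11 arrays. In that culture the median was −0.124 over the accessory genes of complex I, −0.177 over complex III, −0.101 over complex IV and −0.111 over complex V. The shift did not extend to every group: the median there was −0.0175 over the complex I core, 0.107 over the 4 complex II genes and 0.0798 over the Ndufaf genes. LiPS-47 was the lowest line for 41 of the 90 members, against 20.4% of all genes, and for 18 of the 28 accessory genes of complex I. The median member difference was 0.048 for LiPS-45 minus LiPS-47 and 0.050 for LiPS-57 minus LiPS-47. Without LiPS-47 replicate 1 these medians were 0.0058 and 0.016, so the lower level of the members in LiPS-47 came mostly from that culture. In LiPS-50 the medians against LiPS-45 and LiPS-57 were −0.0013 and −0.00040 over all members, and −0.0785 and −0.0564 (the other line minus LiPS-50) over complex IV. With each array centred on its median, the all-member medians became 0.050 and 0.048, and the complex IV medians −0.027 and −0.0075, so the size of the complex IV shift in these pairs depends on the scaling of the arrays. For LiPS-47 minus LiPS-50 the complex IV median was −0.108, and −0.0728 with that centring.

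**Figure D3:**
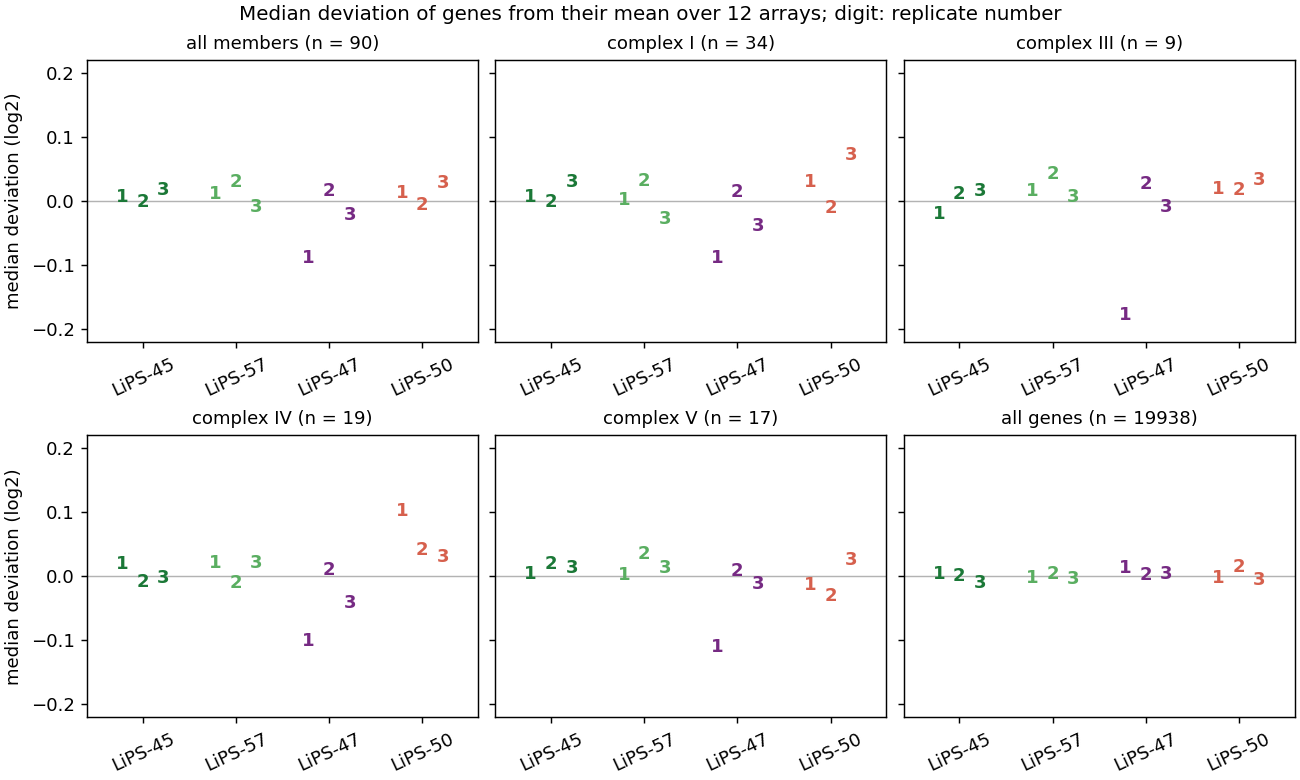
Median deviation of genes from their own mean over the 12 arrays (vertical axis, log2) for each culture, with the digit giving the replicate number, for all members, complexes I, III, IV and V, and all genes; complex II and the Ndufaf genes, whose medians were above 0 in LiPS-47 replicate 1, are not drawn. LiPS-47 replicate 1 lies lowest in the 5 member panels and near 0 in the panel of all genes.

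The competence comparison called no probe set on the array, so its count says nothing particular to the members. With the line as a random block, 0 of 90 members were called between the competent and other lines (background 0.0%), 5 had an unadjusted p under 0.05 and 2226 of all probe sets did. Those 5, Atp5g1, Cox7a1, Sdhc and Uqcrh (1.13-fold to 1.15-fold higher in competent lines) and Ndufa8 (1.10-fold lower), all had an adjusted p of 0.648. In the 4 pairs that set a competent line against another, 0 members were called higher in each pair (background 0.0%) and 0 were called lower in each (0.00691%). The 95% intervals of 79 members lay within 1.25-fold and those of 89 within 1.5-fold. The exception was Ndufa1, whose interval was −0.649 to 0.143. The random block used 1 correlation for all probe sets (0.183), so an interval can understate a gene's own spread between lines. Ndufb11 and Cox7b counted as within 1.5-fold, although LiPS-50 exceeded LiPS-47, also without competence, by 0.64 and 0.63. For single pairs of lines the interval was 0.156 wide on each side at the median, or 1.11-fold. Between LiPS-45 and LiPS-57, the competent lines, it lay within 1.25-fold for 81 members and within 1.5-fold for all 90. These intervals describe cultures of these lines, and they do not show that other lines of either kind would act alike.

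Genes that act with the complexes were counted from lists outside the naming rule. Between LiPS-45, LiPS-57 and LiPS-47, 0 genes of these lists passed limma's test, and at most 2 genes of a list had an unadjusted p under 0.05 in a pair. Of all probe sets, only 0.266% (LiPS-45 and LiPS-57), 0.0622% (LiPS-45 and LiPS-47) and 0.159% (LiPS-57 and LiPS-47) were called. The count of 0 therefore says little about lists of this size. Of 9 complex I assembly factors with other names, 4, 4 and 3 were called lower in LiPS-50 than in LiPS-45, LiPS-57 and LiPS-47 (background for that direction 8.3%, 7.48% and 7.31%), and 0 higher. Dmac2, which helps to build the distal membrane arm, measured 7.48, 7.62 and 7.57 in LiPS-50 and 7.92 to 8.23 in the other cultures (lower by 0.48, 0.57 and 0.44). Ecsit, of the intermediate assembly complex for the membrane arm, measured 8.15, 8.25 and 8.27 against 8.42 to 8.66, and Foxred1 7.36, 7.48 and 7.57 against 7.63 to 7.92; no LiPS-50 culture overlapped the others in these 3 genes. Nubpl, which delivers iron-sulfur clusters to complex I, was called lower than in LiPS-45 and LiPS-57 (1.48-fold and 1.46-fold) and is named here after its values were seen. The median differences of the list were 0.041, 0.174 and 0.0062 (the other line minus LiPS-50), against −0.013, −0.0068 and 0.0083 over all genes.

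Of 31 assembly factors of complexes II to V, 1, 4 and 3 were called (background 16.5%, 15.6% and 15.8%), shares below that of all probe sets. Atpaf2, a chaperone of the ATP synthase head, was lower in LiPS-50 in all 3 pairs (7.65, 7.75 and 7.81 against 7.94 to 8.17). Cox14, a translation-linked factor of complex IV, was higher than in LiPS-57 and LiPS-47 (8.17, 8.20 and 8.41 against 7.74 to 8.04 in those lines). Cmc2 was called lower than in LiPS-57 (means of 7.98 and 8.27). Of 14 genes for cytochrome c and coenzyme Q synthesis, 4, 2 and 3 were called, against the same background. Cyct, the testis form of cytochrome c, measured 7.03, 6.65 and 6.98 in LiPS-50 and 6.14 to 6.38 in the other 9 cultures, which is 1.57-fold, 1.62-fold and 1.50-fold higher. Cycs, the somatic form, was called lower than in LiPS-45 and LiPS-47 (1.21-fold and 1.26-fold), through a probe set numbered among genes of another chromosome. Pdss2, which makes the side chain of coenzyme Q, was lower in all 3 pairs (6.66, 6.41 and 6.56 against 6.71 to 7.18).

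Of 15 genes of the tricarboxylic acid cycle and pyruvate dehydrogenase, 3, 4 and 4 were called (background 16.5%, 15.6% and 15.8%). The higher ones in all 3 pairs were Idh3g and Pdha1, a subunit of isocitrate dehydrogenase and the catalytic subunit of pyruvate dehydrogenase. Idh3g measured 10.83, 10.89 and 10.88 in LiPS-50 and 10.21 to 10.37 elsewhere, and Pdha1 11.39, 11.42 and 11.48 against 10.95 to 11.06. These are the 2 X-linked genes of that list. Suclg2, a succinyl-CoA ligase subunit, was lower (8.73, 8.93 and 8.96 against 9.33 to 9.50), again through a probe set numbered among genes of another chromosome. Of 13 transcriptional regulators of mitochondrial genes, 3, 2 and 3 were called lower (background for that direction 8.3%, 7.48% and 7.31%) and 0 higher. Tfb2m, a factor for mitochondrial transcription, measured 7.91, 7.76 and 8.05 against 8.36 to 8.58 (1.50-fold, 1.44-fold and 1.43-fold), with its probe set also numbered among genes of another chromosome. Pprc1, a coactivator related to PGC-1, measured 9.52, 9.37 and 9.39 against 9.59 to 9.77, and Tfb1m was lower than in LiPS-45 and LiPS-47 (1.22-fold and 1.21-fold). Nrf1, Gabpa and Yy1, the factors whose letters were searched in the promoters, were not called, with LiPS-50 means of 8.33, 9.29 and 9.45 against 8.36 to 8.42, 9.36 to 9.42 and 9.54 to 9.61. Of the subunits encoded by mitochondrial DNA, ND3 and COX2 had probe sets here, both numbered among nuclear genes, and 0 were called.

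**Figure D4:**
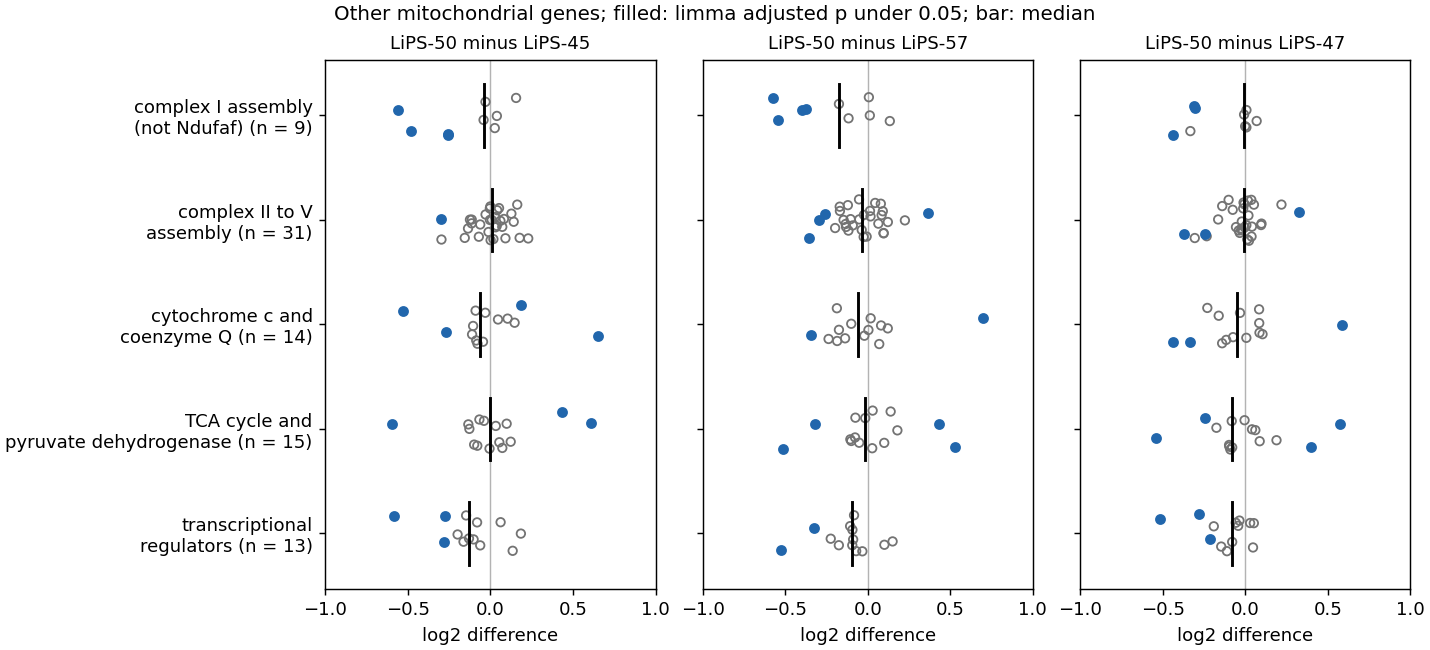
Log2 difference of LiPS-50 minus each other line (horizontal axes) for genes of 5 lists that act with the respiratory complexes, with a point per gene, filled where the adjusted p was under 0.05, and a black bar at the median. Filled points lie on the left of 0 in the rows of complex I assembly factors and transcriptional regulators, and on both sides in the other 3 rows.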

How the data were processed

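RNA from 12 cultures was measured on whole-transcript expression arrays after cDNA amplification and biotin labelling, per the labels' protocols. The authors deposited 1 table of linear intensities, with a value per probe set and array. GCOS 1.4 is named per the submitters' processing notes; how background was corrected and probes were summarized and normalized is not given in the sources used here. Of 35556 probe sets, 6617 with identifiers below every annotated one were left out as a control block, which leaves 28939 tested. Of these, 21789 list 1 gene, and current symbols came from RefSeq by gene identifier.

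Values were taken as log2(value + 1), and the brightest probe set by mean over the 12 arrays stood for a gene. Lines were compared with limma 3.58.1 in R 4.3.3, in a fit of 4 line means over 12 arrays (8 residual and 4.06 prior degrees of freedom), two-sided, with Benjamini-Hochberg adjustment over 28939 probe sets and a threshold of 0.05. Competence used the line as a random block (consensus correlation 0.183). The p-values rest on how far cultures of a line differed. Tested on data simulated for LiPS-47 against LiPS-50 over 28939 probe sets, the fit recovered 32% of 1.25-fold, 72% of 1.5-fold and 100% of 2-fold changes. Of 160 calls, 8 were false. Only 50 probe sets were changed at each fold, whereas 4568 were called in the measured pair. The median standard deviation between cultures was 0.114 over all probe sets and 0.0798 over members. The simulated rates therefore do not carry over to that pair or to the members. The number of arrays limits the precision.

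The members and the gene lists were chosen with earlier results of these data known. Named were up to 5 members of a group with the smallest F-test p, the Sdh genes and Cyc1, members on the X chromosome, isoform partners, members called for competence, and up to 3 genes of each list. All 14 called members are described, and members outside the rule are counted. The numbering of probe sets on the array follows the genome, so the chromosome of the 10 neighbours on each side was set against the gene's own; 9 members' brightest probe sets lay among genes of another chromosome. Alternatives were quantile normalization, median centring, another pseudocount of 16, a filter on probe sets below the 40th percentile, the control block included, a replicate block, the 2 lines alone, the mean of a gene's probe sets and leaving out each culture. The probe set beside genes of its own chromosome and the omission of X-linked members were added after the data were seen. The NRF1 letters were shortened by 1 after the first search, and both forms are reported.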

Additional observations from a re-analysis of the deposited data

How the results depend on the processing

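Over 175 alternative counts of called members, 161 stayed within 1.5 times the reported count. No single difference among the 84 called for named genes reversed, and 59 kept their call under every alternative, among them the 3 LiPS-50 pairs of Ndufa1, Ndufb11, Cox7b and Ndufaf6. The LiPS-45 and LiPS-50 count was 8 without probe sets below the 40th percentile, where 5464 of 17363 probe sets were called. It was 2 with X-linked members left out. The LiPS-47 and LiPS-50 count was 6 with the 2 lines fitted alone and ranged from 5 to 12 when 1 culture was left out, with 6 without LiPS-47 replicate 1 and 5 without LiPS-50 replicate 1. The LiPS-57 and LiPS-50 count ranged from 6 to 12, with 7 without LiPS-50 replicate 1 or 2 and 6 without LiPS-50 replicate 3, LiPS-57 replicate 2 or LiPS-57 replicate 3. The competence count was 2 when line means were contrasted without the random block, a setting that called 1789 of all 28939 probe sets. That contrast takes no account of the spread between lines of the same competence. The 2 members were Cox7b and Ndufb11, lower in competent lines. The F-test count was 12 with a pseudocount of 16, where 5260 of 28939 probe sets were called. It was 12 without dim probe sets, where 5159 of 17363 were called, and 4 with X-linked members left out. The cause was not tested, apart from the omissions that remove members or arrays by construction. With each array centred on its median, the median difference against LiPS-50 over all members was 0.050 for LiPS-45, 0.048 for LiPS-57 and −0.0071 for LiPS-47. In the same setting it was 0.069 and 0.051 for complex I, 0.079 and 0.22 for complex II, −0.027 and −0.0075 for complex IV, and 0.065 and 0.059 for complex V, against LiPS-45 and LiPS-57. Quantile normalization gave −0.025 for complex V in LiPS-45 minus LiPS-50. With this centring the median of all probe sets became 0.051, 0.049 and 0.050 in the LiPS-45, LiPS-57 and LiPS-47 pairs with LiPS-50. Before it, those medians were −0.00024, 0.00019 and 0.014. Leaving out 1 culture moved the all-member median over 0.0058 to 0.059 for LiPS-45 minus LiPS-47, 0.016 to 0.071 for LiPS-57 minus LiPS-47 and −0.062 to −0.0087 for LiPS-47 minus LiPS-50. It did so over 0.018 to 0.087 (LiPS-45 minus LiPS-47), −0.093 to −0.026 (LiPS-47 minus LiPS-50) and −0.035 to 0.012 (LiPS-57 minus LiPS-50) for complex I, and 0.065 to 0.187 (LiPS-47 minus LiPS-50) for the Ndufaf genes. The ranges were −0.018 to 0.071 (LiPS-45 minus LiPS-47) and −0.00084 to 0.109 (LiPS-57 minus LiPS-47) for complex III and 0.0090 to 0.087 (LiPS-45 minus LiPS-47) for complex IV. For complex V they were 0.0046 to 0.066 (LiPS-45 minus LiPS-47), 0.0039 to 0.098 (LiPS-57 minus LiPS-47) and −0.072 to 0.0090 (LiPS-47 minus LiPS-50). Same-numbered cultures did not deviate together: correlations of their deviations ran from −0.169 to 0.121, 4 of 18 were above 0.1, and 4 of 12 arrays correlated best with their own number. With a replicate block, 5, 9 and 9 members were called in the LiPS-45, LiPS-57 and LiPS-47 pairs with LiPS-50, 0 in the other 3 pairs and for competence, and 6 by the F-test.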

Other observations

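Several probe sets measured the same gene for 17 members, which gives a second reading of their line differences. The differences between lines spread over a gene's probe sets by a median of 0.033, and the widest spread was 0.204, in Ndufa11. For the X-linked Ndufb11 and Cox7b, whose brightest probe sets are numbered among genes of another chromosome, the probe sets numbered with the X chromosome differed from them by less than the standard error of the difference in all 6 comparisons with LiPS-50. For Atp5g2, the 3 probe sets gave differences of 0.201, 0.216 and 0.217 for LiPS-57 minus LiPS-50, of which only the first did not pass the threshold.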
